A study of Mus musculus with 12 samples.

Results

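Smooth muscle contractile genes encode the actin, myosin and accessory proteins with which smooth muscle cells shorten. The 10 genes described here are Acta2, Actg2, Myh11, Mylk, Cnn1, Tagln, Smtn, Lmod1, Synpo2 and Des. They were chosen by gene symbol out of 18194 genes measured, each through probe sets of the array that name that gene alone, and were followed across 6 groups of mice. All 10 were present on the array, with 19 probe sets in all. Each gene is represented by its brightest probe set on average over the 12 arrays, and the others serve as a check.

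In smooth muscle, a rise in calcium switches on myosin light chain kinase, which phosphorylates the regulatory light chain so that smooth muscle myosin can pull on actin filaments. Calponin, transgelin, smoothelin and leiomodin bind these filaments, and desmin filaments tie the apparatus to the rest of the cell. The genes are activated by serum response factor and its cofactor myocardin through a DNA element called the CArG box, and TGF-beta, whose signals Smad3 carries to the nucleus, is a known inducer of several of them. In most organs, fat included, such cells lie mainly in the walls of blood vessels.

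Total RNA of mice was hybridised to 12 Affymetrix arrays, 1 sample to an array, with 2 arrays (a and b) per group. Mice with a targeted disruption of Smad3 (Smad3-/-), in a background that the labels call a mix of C57BL/6 with NIH Black Swiss females, received a high fat diet or a regular diet. Wild-type (WT) mice were C57BL/6 and received the same diets. In a separate experiment, obese mice of the strain written C57J/B6 received an antibody against TGF-beta (catalogue number 1D11) or control IgG (13C4), and their obesity was induced by diet. The antibodies were given by intraperitoneal injection for 8 weeks, with 3 doses weekly, and the high fat diet is described as 55% fat. The labels give no age and no tissue, and they do not say whether arrays a and b came from separate animals. The p-values below thus reflect no more than array-to-array spread, part or all of which could be technical. Strain background differs between the genotypes, so the effects of strain and genotype cannot be told apart.

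Values are RMA values on a log2 scale, in which a difference of 1 is a doubling. Adipoq, the gene of the fat cell hormone adiponectin, had group means of 13.07 to 13.95 in the diet and genotype arrays. In the antibody arrays they were 13.80 and 14.15. Array medians ran from 6.32 to 6.39 in the 8 diet and genotype arrays and from 6.03 to 6.04 in the 4 antibody arrays, with SDs over probe sets of 1.64 to 1.74 and 2.15 to 2.17, so no level is compared between the experiments. Arrays of the same group correlated at 0.992 to 0.996 over genes. Smad3 itself had values of 9.03 to 9.17 on the 4 arrays labelled Smad3-/- and 8.86 to 8.95 on the 4 arrays labelled WT. Neither genotype comparison of Smad3 passed the test (log2 difference 0.23, adjusted p = 0.117 on the regular diet; 0.17, adjusted p = 0.409 on the high fat diet). The sources used here do not place its 3 probe sets against the disrupted stretch. The Smad3 values therefore do not check the genotype, and Smad3-/- below means the arrays so labelled. In such bulk samples, fewer cells of a type and less RNA per cell cannot be told apart.

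The stretch just before the start of a gene holds part of its promoter. RefSeq's promoter table (GRCm38.p6) has a window for 7 of the 10 genes: Acta2, Cnn1, Des, Lmod1, Mylk, Smtn and Synpo2. Each window ends at 1 start that this table uses for the gene, which need not be the outer end of the gene in RefSeq's gene table of the same build. For Des, Lmod1 and Smtn the 250 bases before that start lay wholly outside the gene's span, whereas 19 of them lay inside it for Synpo2, 32 for Cnn1, 212 for Acta2 and all 250 for Mylk. The 250 bases before the start used for Acta2 and for Cnn1 are shown, since Acta2 is the only one of the 7 with a CArG-like match there and Cnn1 had the most negative difference of all genes between Smad3-/- and WT on the regular diet. The windows are chr19:34255374-34255623 (minus strand) for Acta2 and chr9:22099003-22099252 (plus strand) for Cnn1, and capitals mark matches to the CArG box with exactly 1 G or C inside its core of 6 bases.
Acta2: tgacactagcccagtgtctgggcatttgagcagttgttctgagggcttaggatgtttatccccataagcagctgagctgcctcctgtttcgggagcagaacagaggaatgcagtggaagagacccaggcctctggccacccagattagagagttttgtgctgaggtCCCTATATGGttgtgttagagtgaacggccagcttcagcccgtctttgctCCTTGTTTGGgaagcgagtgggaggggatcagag
Cnn1: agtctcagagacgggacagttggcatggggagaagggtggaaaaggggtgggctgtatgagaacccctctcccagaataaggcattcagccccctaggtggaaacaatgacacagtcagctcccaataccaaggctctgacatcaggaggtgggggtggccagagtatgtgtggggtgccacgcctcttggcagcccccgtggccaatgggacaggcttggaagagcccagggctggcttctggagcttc
The matches in Acta2 begin 84 and 34 bases before the start used in the promoter table. The strict CArG box, whose core holds only A and T, was in 0 of the 7 windows and in 482 of all 32851 windows, or 1.47%. The form with 1 G or C in the core was in 1 of the 7 and in 7.24% of all windows. Among 47 windows of 32 other smooth muscle genes (listed further on), 12.8% held the strict form. Both strands were covered, as the element reads the same on either. A match describes letters only, and its absence says only that these letters are not in this stretch.

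**Figure D1:**
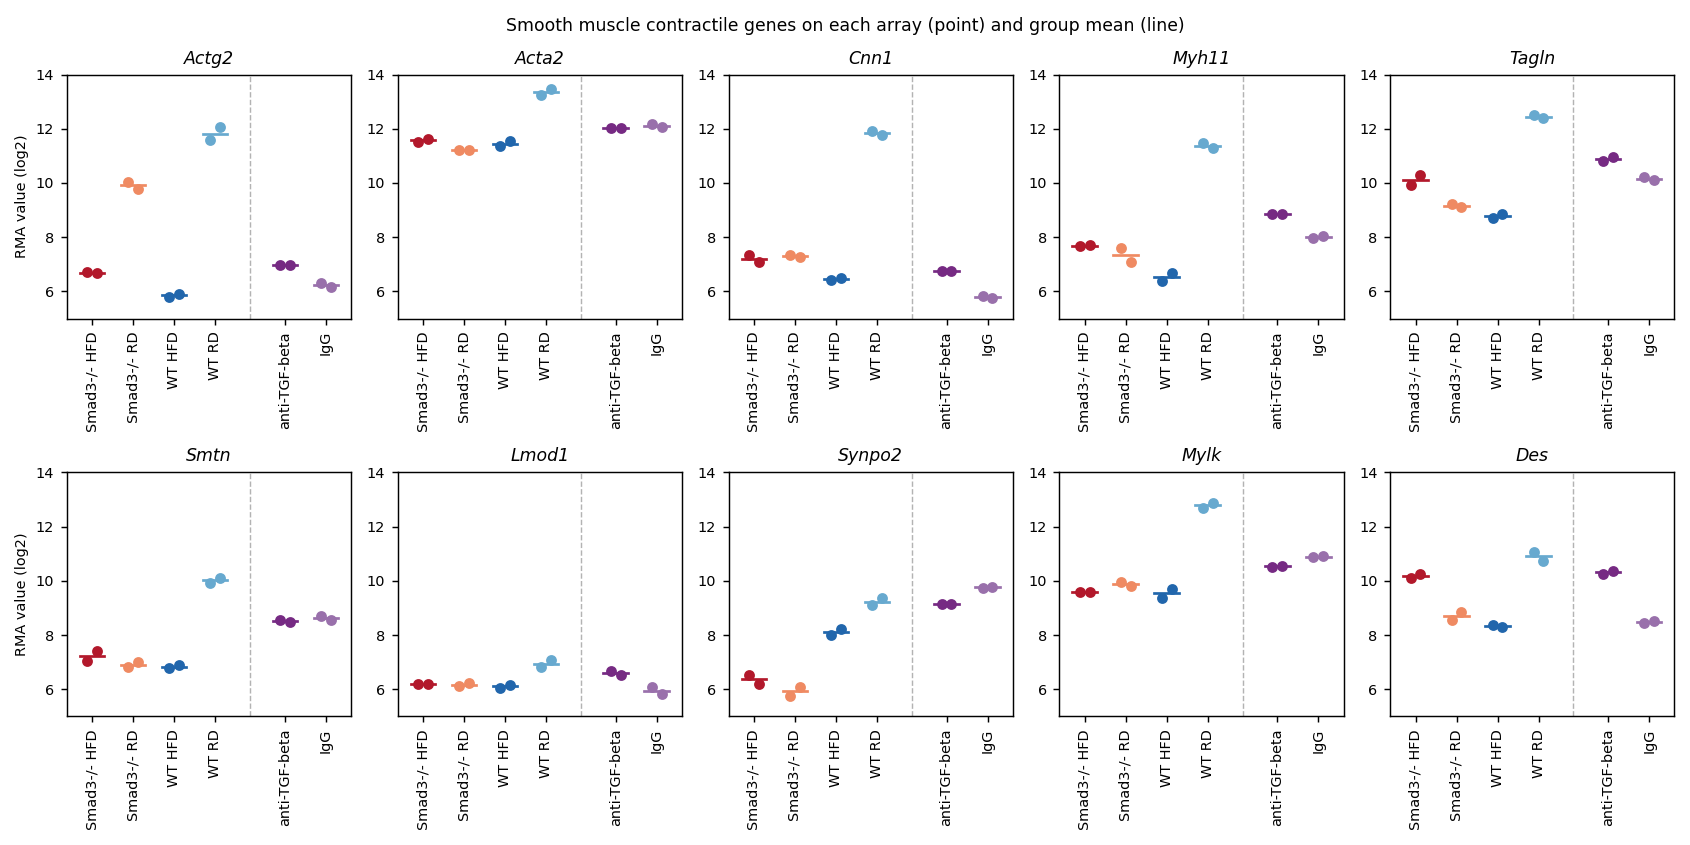
RMA values (log2) of the 10 genes on each of the 12 arrays, 1 panel per gene. Points are arrays, lines are group means, HFD and RD are high fat and regular diet, and the dashed line parts the experiments, whose levels are not comparable. Both arrays of WT mice on the regular diet lie above the other 6 diet and genotype arrays in each panel, by 0.49 in Des and by 4.43 in Cnn1.

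Among the actins, Acta2 encodes the alpha actin of smooth muscle and Actg2 the gamma actin best known from the gut and other visceral smooth muscle. Acta2 had values of 11.53 and 11.64 in Smad3-/- mice on high fat diet, 11.23 and 11.23 in Smad3-/- mice on regular diet, 11.36 and 11.53 in WT mice on high fat diet, and 13.24 and 13.46 in WT mice on regular diet. The last pair stood alone, and the 3 other groups lay close together, with those on the high fat diet overlapping. With the antibody Acta2 had 12.04 and 12.02, against 12.18 and 12.05 with IgG, which lie side by side without overlap. Actg2 had 6.70 and 6.68 in Smad3-/- on high fat diet, 10.05 and 9.78 in Smad3-/- on regular diet, 5.81 and 5.92 in WT on high fat diet, and 11.60 and 12.05 in WT on regular diet. Both regular diet groups were high and both high fat groups low, with no overlap between any of the 4, and the WT high fat values lay below the array median. With the antibody Actg2 had 6.98 and 6.96, against 6.30 and 6.15 with IgG.

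For the motor, Myh11 encodes the smooth muscle myosin heavy chain and Mylk the myosin light chain kinase. Myh11 had 7.67 and 7.71 in Smad3-/- on high fat diet, 7.60 and 7.09 in Smad3-/- on regular diet, 6.40 and 6.69 in WT on high fat diet, and 11.48 and 11.28 in WT on regular diet. The WT regular diet pair lay at least 3.56 above every other diet array, and WT on high fat diet was the lowest group. In the antibody experiment Myh11 had 8.85 and 8.84 with the antibody, against 7.99 and 8.04 with IgG. Mylk had 9.58 and 9.57 in Smad3-/- on high fat diet, 9.97 and 9.82 in Smad3-/- on regular diet, 9.36 and 9.71 in WT on high fat diet, and 12.68 and 12.88 in WT on regular diet. Apart from that last pair the groups lay close together, and those on the high fat diet overlapped. Mylk had 10.52 and 10.56 with the antibody, against 10.86 and 10.93 with IgG, the opposite order to Myh11.

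Cnn1 encodes calponin 1, which binds actin and restrains myosin, and Tagln encodes transgelin (SM22 alpha), which bundles actin. Cnn1 had 7.33 and 7.08 in Smad3-/- on high fat diet, 7.35 and 7.28 in Smad3-/- on regular diet, 6.42 and 6.51 in WT on high fat diet, and 11.93 and 11.78 in WT on regular diet. The Smad3-/- groups overlapped with each other, and the 2 lowest arrays, of WT on high fat diet, were near the array median, where a value may be mostly background. With the antibody Cnn1 had 6.75 and 6.74, against 5.85 and 5.77 with IgG. Tagln had 9.94 and 10.29 in Smad3-/- on high fat diet, 9.21 and 9.12 in Smad3-/- on regular diet, 8.71 and 8.86 in WT on high fat diet, and 12.50 and 12.39 in WT on regular diet. Its 4 groups did not overlap, and all stood well above the array median. Tagln had 10.81 and 10.94 with the antibody, against 10.21 and 10.10 with IgG.

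Smtn encodes smoothelin, a protein of actin filaments in contractile smooth muscle cells, and Lmod1 encodes leiomodin 1, which starts new actin filaments. Smtn had 7.06 and 7.43 in Smad3-/- on high fat diet, 6.82 and 7.00 in Smad3-/- on regular diet, 6.77 and 6.89 in WT on high fat diet, and 9.91 and 10.11 in WT on regular diet. The lowest groups, Smad3-/- on regular diet and WT on high fat diet, overlapped. Smtn had 8.56 and 8.46 with the antibody, against 8.72 and 8.56 with IgG. Lmod1 had 6.20 and 6.20 in Smad3-/- on high fat diet, 6.13 and 6.21 in Smad3-/- on regular diet, 6.04 and 6.16 in WT on high fat diet, and 6.83 and 7.07 in WT on regular diet. Of these arrays only the WT regular diet pair lay above the array median, so the lower values may be background. With the antibody Lmod1 had 6.66 and 6.53, against 6.07 and 5.83 with IgG.

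Synpo2 encodes synaptopodin 2 (myopodin), an actin-binding protein of smooth and striated muscle, and Des encodes desmin, the intermediate filament protein of smooth, skeletal and cardiac muscle. Synpo2 had 6.53 and 6.19 in Smad3-/- on high fat diet, 5.76 and 6.08 in Smad3-/- on regular diet, 7.99 and 8.21 in WT on high fat diet, and 9.11 and 9.35 in WT on regular diet. It was the only one of the 10 in which both WT groups lay above both Smad3-/- groups. Synpo2 had 9.16 and 9.15 with the antibody, against 9.73 and 9.78 with IgG. Des had 10.11 and 10.23 in Smad3-/- on high fat diet, 8.55 and 8.83 in Smad3-/- on regular diet, 8.37 and 8.30 in WT on high fat diet, and 11.07 and 10.73 in WT on regular diet. Here Smad3-/- mice on high fat diet came within 0.49 of the WT regular diet pair. Des had 10.27 and 10.37 with the antibody, against 8.45 and 8.50 with IgG.

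Both arrays of WT mice on regular diet thus exceeded the other 6 diet and genotype arrays in 10 of 10 genes, where 10.4% of all genes did so. Next in level came Smad3-/- on high fat diet for 6 genes, Smad3-/- on regular diet for 3 (Actg2, Cnn1 and Mylk) and WT on high fat diet for 1 (Synpo2). The lowest group was WT on high fat diet for 8 genes and Smad3-/- on regular diet for Acta2 and Synpo2. The arrays of the highest and the next group overlapped for 0 genes, those of the next and the third for 3 and those of the third and the lowest for 3. Over genes and groups, the SD of the 2 arrays was 0.00134 to 0.36. Differences were tested with limma over all 12 arrays and adjusted by Benjamini-Hochberg over all 18194 genes, at a threshold of 0.05.

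Whether loss of Smad3 goes with other levels without the fat-rich diet is asked by the comparison of Smad3-/- with WT on the regular diet. All 10 genes fell, in a background of 15.6% of all genes called lower and 24.0% called in either direction. Genes called higher made up 8.40% of all genes. The arrays of the groups did not overlap for 10 of 10 genes, all lower, against 27.1% of all genes lower and 32.3% higher. Their median log2 difference was -2.99, against 0.04 over all genes. Cnn1 fell by 4.54 (SE 0.12, adjusted p = 2.85e-21), or 23.3-fold, which placed it lowest of all 18194 genes. Myh11 fell by 4.03 (SE 0.14, adjusted p = 4.52e-19), or 16.4-fold, and ranked 4 from the bottom. Smaller but still steep were the differences of Synpo2 (-3.31), Tagln (-3.28), Smtn (-3.10) and Mylk (-2.89), and 6 of the 10 were among the 25 lowest genes. Des (-2.21), Acta2 (-2.12) and Actg2 (-1.91) followed. Lmod1 changed least, by -0.78 (SE 0.14, adjusted p = 9.56e-05).

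Levels on the high fat and the regular diet were compared within each genotype. In WT mice on high fat against regular diet, all 10 genes fell, in a background of 6.11% called lower and 10.8% in either direction. Another 4.69% of all genes were called higher. The arrays did not overlap for 10 of 10 genes, all lower, against 21.9% of all genes lower and 25.9% higher. The median difference was -3.21, against 0.02 over all genes. Actg2, Cnn1 and Myh11 were the 3 lowest of all genes in this comparison. Actg2 fell by 5.96 (SE 0.13, adjusted p = 1.88e-22), or 62.2-fold. Cnn1 fell by 5.39 (SE 0.12, adjusted p = 1.88e-22), or 41.9-fold, and Myh11 by 4.83 (SE 0.14, adjusted p = 1.96e-20), or 28.5-fold. Tagln (-3.66), Mylk (-3.24) and Smtn (-3.18) fell by more than 3, and Des (-2.57) and Acta2 (-1.91) by less. Synpo2 (-1.13) and Lmod1 (-0.85, adjusted p = 7.47e-05) changed least. This comparison and that of the genotypes on regular diet share the WT regular diet arrays, so their values stand side by side and are not independent of each other.

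In Smad3-/- mice on high fat against regular diet, 4 genes rose, 2 fell and 4 did not pass, in a background of 11.5% called higher and 5.82% called lower. In all, 17.3% were called. The arrays did not overlap for 6 genes that were higher, against 27.0% of all genes, and for 2 that were lower, against 25.9%. The median was 0.34, against 0.00 over all genes. Des rose by 1.48 (SE 0.12, adjusted p = 1.11e-10) and Tagln by 0.95 (SE 0.11, adjusted p = 1.88e-07). Synpo2 (0.44, adjusted p = 0.0193) and Acta2 (0.35, adjusted p = 0.0179) rose too. The 3 other probe sets of Synpo2 gave 0.18, 1.95 and 0.34, of which only 1.95 passed (adjusted p = 2.54e-11). The other probe sets of Acta2 gave -0.11 and 0.32, and neither passed. Actg2 fell by 3.22 (SE 0.13, adjusted p = 6.76e-17), or 9.35-fold, a diet difference in the direction seen in WT. Mylk fell by 0.32 (adjusted p = 0.0494), but this probe set missed the threshold in a fit of all probe sets naming a single gene (adjusted p = 0.0701). The other probe sets of Mylk differed in sign, with -0.61 called lower (adjusted p = 0.00186) and 0.23 not passing. Cnn1, the gene with the lowest value in the genotype comparison on regular diet, differed by -0.11 (95% interval -0.36 to 0.14). For the other genes that did not pass, the intervals were 0.07 to 0.63 for Myh11, 0.07 to 0.59 for Smtn and -0.26 to 0.32 for Lmod1. Without Smad3-/- regular diet a, Myh11 passed (0.60, adjusted p = 0.00313), and without Smad3-/- high fat a, Smtn passed (0.52, adjusted p = 0.0165). The calls of Mylk, Synpo2 and Acta2 were lost when 1 array was left out (Mylk without Smad3-/- regular diet a, high fat a or high fat b; Synpo2 without regular diet a or high fat a; Acta2 without high fat b), with adjusted p between 0.161 and 0.322.

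Smad3-/- against WT on the high fat diet gave 6 genes that rose, 1 that fell and 3 that did not pass, in a background of 4.74% called higher and 6.05% called lower. In either direction 10.8% were called. The arrays did not overlap for 7 genes that were higher, against 22.3% of all genes, and for 1 that was lower, against 25.7%. Their median was 0.58, against -0.01 over all genes. Des rose by 1.84 (SE 0.12, adjusted p = 2.29e-12), or 3.58-fold. Tagln rose by 1.33 (SE 0.11, adjusted p = 6.65e-10) and Myh11 by 1.15 (SE 0.14, adjusted p = 3.55e-07). Actg2 (0.82) and Cnn1 (0.74) rose as well, both with WT values near the array median. Smtn rose by 0.41 (adjusted p = 0.0348), a call lost without WT high fat a (adjusted p = 0.221), WT high fat b (0.0662) or Smad3-/- high fat b (0.492). Synpo2 fell by 1.74 (SE 0.13, adjusted p = 1.01e-10), or 3.33-fold, but its other probe sets did not show this fall, as given below. Acta2 differed by 0.13 (95% interval -0.08 to 0.35), Lmod1 by 0.10 (-0.19 to 0.39) and Mylk by 0.04 (-0.19 to 0.27).

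Whether the diet difference was the same in both genotypes was tested by the interaction, the diet difference in Smad3-/- minus that in WT. All 10 genes passed with a positive value, in a background of 12.0% higher, 6.77% lower and 18.8% in either direction. Since all 10 genes were lower on the high fat diet in WT, a positive value here means a less negative or a positive diet difference in Smad3-/-. Cnn1 (5.28), Myh11 (5.18), Tagln (4.61) and Des (4.05) were among the 25 highest genes. Actg2, which fell on the diet in both genotypes, had 2.73 (SE 0.19, adjusted p = 5.36e-12). The lowest values were 1.58 for Synpo2 and 0.88 for Lmod1 (adjusted p = 0.0016). All values of the interaction again rest on the WT regular diet pair as 1 of 4 groups, so they are not independent of the comparisons above that share it. For Acta2, Lmod1 and Mylk the genotypes differed by 0.13, 0.10 and 0.04 on high fat diet, and none of these passed. Their interaction values are thus mostly the genotype differences on regular diet (-2.12, -0.78 and -2.89) with the sign turned.

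In obese mice given the antibody against TGF-beta, set against those given IgG, 6 genes rose, 2 fell and 2 did not pass, in a background of 11.7% called higher and 12.6% called lower. Calls in either direction came to 24.3%. The arrays did not overlap for 6 genes that were higher, against 29.7% of all genes, and for 4 that were lower, against 30.5%. The median was 0.68, against 0.00 over all genes. Des rose by 1.84 (SE 0.12, adjusted p = 9.39e-13), or 3.59-fold. Cnn1 rose by 0.94 (SE 0.12, adjusted p = 9.94e-07) and Myh11 by 0.83 (SE 0.14, adjusted p = 2.57e-05). Actg2 (0.75), Tagln (0.72) and Lmod1 (0.64) also rose, and the Cnn1, Actg2 and Lmod1 values with IgG were near the array median. Synpo2 fell by 0.60 (adjusted p = 0.00116) and Mylk by 0.36 (adjusted p = 0.0189). The Mylk call was lost without any 1 of the 4 arrays (adjusted p 0.0566 to 0.127). Acta2 differed by -0.09 (95% interval -0.30 to 0.13) and Smtn by -0.13 (-0.39 to 0.13). These arrays share none with the diet and genotype experiment.

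**Figure D2:**
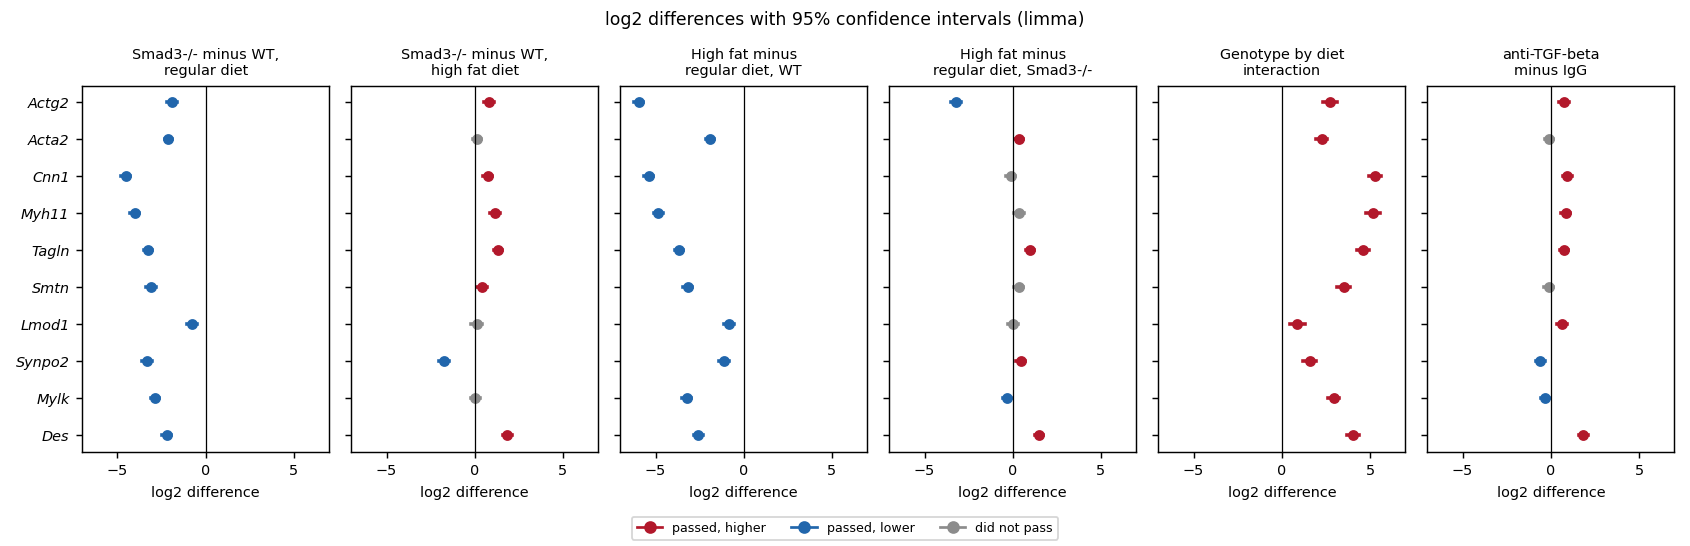
Log2 differences of the 10 genes in the 6 comparisons, with bars for the 95% interval from limma and colour for the call. All 10 lie left of 0 for genotype on regular diet and for diet in WT, all 10 lie right of 0 for the interaction, and the other 3 comparisons have genes on both sides.

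The 9 other probe sets of these genes were tested in a fit of the 34958 probe sets that name a single gene, with p-values adjusted over these. Of all 19 probe sets, 17 fell for Smad3-/- against WT on regular diet, 17 fell for high fat against regular diet in WT, and 17 rose in the interaction. The 2 that did not pass in any of these were the other probe set of Myh11 and the other one of Des. That of Myh11 had group means of 5.00 to 6.17, below the array medians, and gave -0.12 for genotype on regular diet (adjusted p = 0.697) and -0.44 for diet in WT (adjusted p = 0.0981). That of Des gave 0.17 (adjusted p = 0.483) and -0.18 (adjusted p = 0.624), and differed by 0.31 between the genotypes on high fat diet and by -0.06 with the antibody (adjusted p = 0.250 and 0.819), so the increases of Des rest on its brighter probe set alone. Both other probe sets of Mylk fell for genotype on regular diet (-3.34 and -1.66) and for diet in WT (-3.96 and -1.51).

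Synpo2 has 4 probe sets, which differed in sign for genotype on high fat diet and for the antibody. For Smad3-/- against WT on high fat diet they gave -1.74 for the brightest, and -0.17, 0.72 and -0.10 for the others, of which only 0.72 passed (adjusted p = 0.000465). With the antibody the 4 gave -0.60, 0.08, 0.45 and 0.59, the last pair called higher (adjusted p = 0.015 and 0.00371). The falls of Synpo2 in these comparisons were thus seen with its brightest probe set and not with the 3 others. Acta2 likewise had probe sets that gave -0.09, -0.49 and 0.77 with the antibody, the last of them called higher (adjusted p = 0.000289) and the middle one lower (adjusted p = 0.0441). For genotype on regular diet the 3 gave -2.12, -2.07 and -0.62, all lower.

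**Figure D3:**
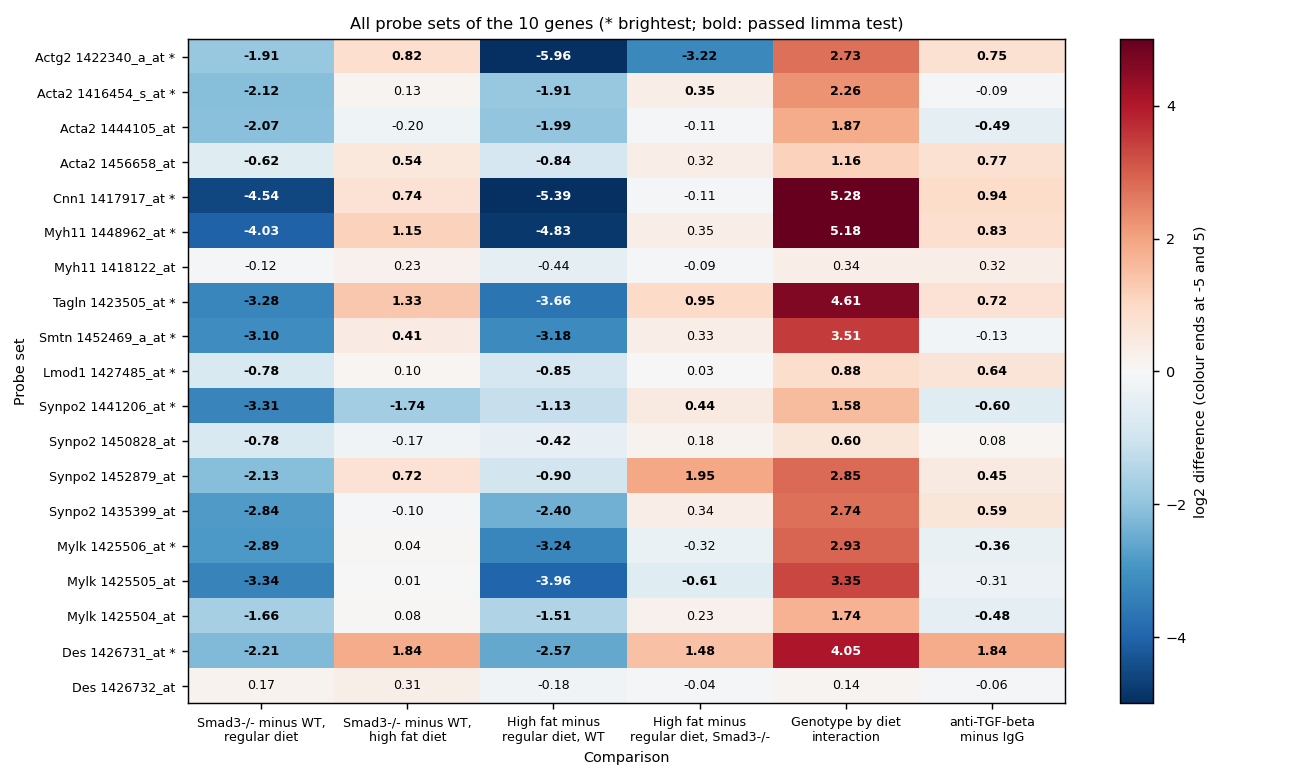
Log2 differences of all 19 probe sets (rows, named by gene and probe set) in the 6 comparisons (columns), coloured by value, with bold type for a call and a star for the brightest probe set of a gene. The columns for genotype on regular diet and for diet in WT are negative in 18 and 19 of the 19 rows, and the 4 rows of Synpo2 differ in sign for genotype on high fat diet and for the antibody.

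Other proteins of the contractile apparatus were followed through a list of 37 genes, of which 35 were measured. For Smad3-/- against WT on regular diet 24 of the 35 fell and 11 did not pass, with a median of -1.33. Of all genes, 15.6% were called lower there. The 4 with the smallest p were Csrp1 (-2.83), which encodes a LIM protein of actin filaments, Cald1 (-3.14), which encodes the actin regulator caldesmon, Tpm2 (-3.27), a tropomyosin, and Pdlim3 (-3.26), an actinin-binding protein. For high fat against regular diet in WT 23 fell and 12 did not pass (median -0.65), where 6.11% of all genes were called lower. The falls were led by Tpm2 (-4.17), Csrp1 (-3.16), Myl9 (-3.95), the regulatory light chain, and Pdlim3 (-3.52). In Smad3-/- mice on high fat against regular diet 13 rose and 1 fell (median 0.26), against 11.5% and 5.82% of all genes. Among those that rose were Pdlim3 (2.01), Tpm1 (1.40), Aoc3 (1.38) and Tpm2 (1.11).

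For Smad3-/- against WT on high fat diet 8 of the 35 rose and 2 fell (median 0.08), against 4.74% and 6.05% of all genes. Tpm1 (2.45), Pdlim3 (2.27) and Tpm2 (2.02) led the rises, and Tpm4, a tropomyosin of non-muscle cells, fell by 1.23. Under the antibody 11 rose and 3 fell (median 0.03), against 11.7% and 12.6% of all genes. Pdlim3 (2.19), Tpm2 (1.48), Tpm1 (1.26) and Myl9 (0.80) were at the front. Tpm1, Tpm2 and Pdlim3, like Des, are also genes of skeletal muscle. How far skeletal muscle RNA enters their values was not tested. Csrp1 and Cald1 fell in both comparisons with WT on regular diet. Under the antibody they differed by 0.07 and -0.16 and did not pass (adjusted p = 0.689 and 0.379). They were named after their values were seen and do not stand for the 35, of which 11 rose and 3 fell there. Of the contractile genes, Des (1.84), Cnn1 (0.94), Myh11 (0.83), Actg2 (0.75), Tagln (0.725) and Lmod1 (0.64) rose with the antibody. Of these, Cnn1, Actg2 and Lmod1 were near the array median with IgG. Synpo2 (-0.60) and Mylk (-0.36) fell, and Acta2 and Smtn did not pass. In the interaction 22 of the 35 apparatus genes passed, all with a positive value, where 12.0% of all genes were called higher and 6.77% lower.

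Of 10 regulators of smooth muscle genes, 3 fell for Smad3-/- against WT on regular diet, where 15.6% of all genes were called lower, and 3 for high fat against regular diet in WT, where 6.11% were. Myocd, which encodes myocardin, averaged 5.51 in Smad3-/- and 6.56 in WT on regular diet, a fall by 1.05 (adjusted p = 8.84e-06), and 5.33 in WT on high fat diet, a fall by 1.23 (adjusted p = 2.01e-06). All but the WT regular diet mean lay below the array median, so these folds may be understated. Klf4, a repressor of the contractile genes, fell in the same comparisons, by 1.10 (adjusted p = 6.09e-09) and 0.91 (adjusted p = 5.35e-07). It rose by 0.79 in Smad3-/- on high fat against regular diet, by 0.60 in Smad3-/- against WT on high fat diet and by 0.42 with the antibody. Srf, the serum response factor gene, did not pass in any comparison, with differences from -0.14 to 0.11, and neither did Mrtfb, Hey2, Klf5 and Foxf1. Mrtfa, a cofactor of that factor, fell by 0.42 for genotype on regular diet and by 0.36 with the antibody. Fhl2 fell by 0.40 for diet in WT and by 0.46 with the antibody, where Gata6 rose by 0.44. The 4 calls with the antibody, 2 in each direction, stood against 11.7% of all genes called higher and 12.6% called lower. They numbered 2 without antibody array a or b, 3 without IgG a and 1 without IgG b.

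**Figure D4:**
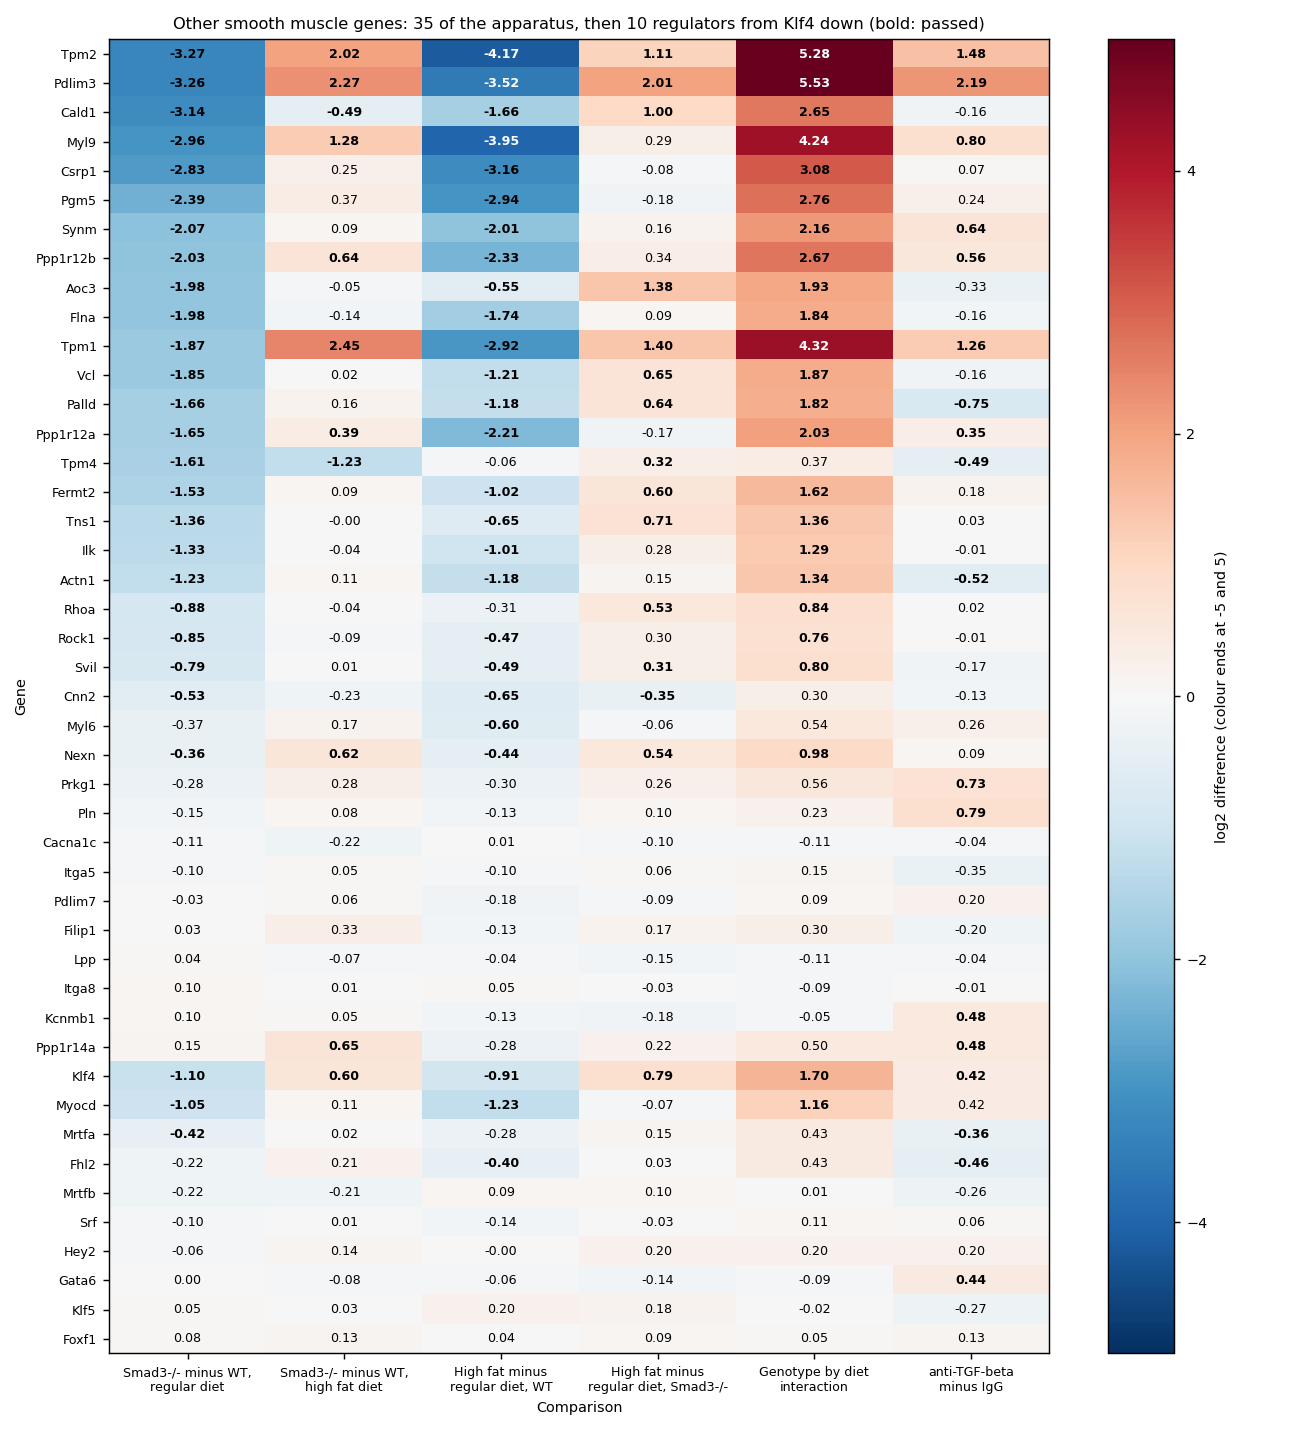
Log2 differences of 35 other genes of the smooth muscle apparatus and of 10 regulators (rows, regulators from Klf4 down) in the 6 comparisons (columns), coloured by value with bold type for a call. The top 23 rows, from Tpm2 to Cnn2, all fell for genotype on regular diet, and the rises under the antibody are led by Pdlim3, Tpm2 and Tpm1.

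Genes of other tissues moved along with these groups. The summed linear level of the 10 contractile genes was 6572 to 7169 in Smad3-/- on high fat diet, 5763 to 6017 in Smad3-/- on regular diet, 4691 to 5320 in WT on high fat diet, and 35647 to 38044 in WT on regular diet. It was 10450 to 10651 with the antibody and 9349 to 9769 with IgG. A list of 24 skeletal muscle genes summed to 36223 to 39439 in Smad3-/- on high fat diet, 3078 to 3108 in Smad3-/- on regular diet, 2298 to 2308 in WT on high fat diet, and 5004 to 5502 in WT on regular diet. With the antibody it summed to 46878 to 47019, and with IgG to 3078 to 3216. All 24 rose in each of the comparisons in which Des rose, namely genotype on high fat diet, diet in Smad3-/- and the antibody. The shares of all genes called higher there were 4.74%, 11.5% and 11.7%. For genotype on regular diet 11 of the 24 rose and 4 fell, against 8.40% and 15.6% of all genes, so the falls were near the background share. The median of the 24 was 0.32 and the highest value 2.55, and Acta1 (-2.44) and Tnnc2 (-2.52) were among those that fell. For diet in WT 5 fell, against 6.11% of all genes, among them Acta1 (-1.77) and Tnnc2 (-4.50). The part of skeletal muscle RNA in the values of Des, Tpm1, Tpm2 and Pdlim3 was not tested. Of 8 cardiac genes, 1 (Myl4) fell for genotype on regular diet and rose for diet in Smad3-/-, and 1 (Tnni3) fell with the antibody, where 15.6%, 11.5% and 12.6% of all genes did so. The Myl4 calls were lost without Smad3-/- regular diet a, the fall also without WT regular diet a and the rise also without Smad3-/- high fat a. The Tnni3 call was lost without antibody array b or IgG b. The cardiac sum ran from 440 to 516 in the diet and genotype arrays and from 427 to 498 in the antibody arrays.

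A list of 9 epididymis genes summed to 5341 to 5859 in Smad3-/- on high fat diet, 64548 to 66145 in Smad3-/- on regular diet, 11399 to 12545 in WT on high fat diet, and 625 to 676 in WT on regular diet. Of 14 genes on this list 9 were measured. All 9 rose for Smad3-/- against WT on regular diet, where 8.40% of all genes were called higher. For high fat against regular diet in WT 4 rose, where 4.69% of all genes were called higher. Lcn5, which encodes a lipocalin of the epididymis, averaged 14.02 in Smad3-/- and 5.14 in WT on regular diet, and the WT mean lay below the array median. The sum was lowest in WT on regular diet, where the contractile genes were highest. In the antibody experiment the sum was 277 to 284 with the antibody and 249 to 259 with IgG. How far tissue makeup of the samples enters the differences of the contractile genes was not tested.

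Pericytes and endothelial cells are cells of vessel walls, as vascular smooth muscle cells are. Of 12 pericyte genes 5 fell for Smad3-/- against WT on regular diet (15.6% of all genes) and 3 for diet in WT (6.11%), led by Mcam (-1.55 and -0.46), and 5 rose for diet in Smad3-/- (11.5%). The 3 numbered 1 without WT high fat a, and 2 without WT regular diet a or b. The last 5 numbered 3 without Smad3-/- high fat b. Their sum was 4678 to 4706 in Smad3-/- on high fat diet, 3658 to 3836 in Smad3-/- on regular diet, 3883 to 4213 in WT on high fat diet, and 4635 to 4957 in WT on regular diet. It was 9789 to 9835 with the antibody and 10495 to 10962 with IgG. Of 14 endothelial genes 8 fell for genotype on regular diet (15.6% of all genes), led by Cldn5 (-1.25), and 3 for diet in WT (6.11%), led by Ptprb (-0.66), and 8 rose for diet in Smad3-/- (11.5%). The first count was 5 without WT regular diet a or Smad3-/- regular diet b. The second was 0 without WT regular diet a, 1 without WT high fat a or b and 2 without WT regular diet b, by the same limma fit. The last was 5 without Smad3-/- regular diet b or high fat b. The endothelial sum was 5342 to 5856 in Smad3-/- on high fat diet, 3846 to 4728 in Smad3-/- on regular diet, 5339 to 5492 in WT on high fat diet, and 6217 to 6779 in WT on regular diet. With the antibody the endothelial sum was 16604 to 16860, and with IgG 17355 to 18293. Of 10 fat cell genes listed 8 were measured, and 7 of these fell for genotype on regular diet (15.6% of all genes). For diet in WT 3 fell and 1 (Lep) rose (6.11% and 4.69%), and 7 rose for diet in Smad3-/- (11.5%). Their sum was 61234 to 61986 in Smad3-/- on high fat diet, 38128 to 39458 in Smad3-/- on regular diet, 56642 to 60252 in WT on high fat diet, and 64034 to 66100 in WT on regular diet. It was 64562 to 66282 with the antibody and 57116 to 59938 with IgG.

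Immediate early genes and a measure of RNA quality also set the WT regular diet pair apart. Of 14 immediate early genes, 10 were higher on both WT regular diet arrays than on the other 6, as were 10.4% of all genes. Their sum was 2944 to 3048 in Smad3-/- on high fat diet, 3101 to 3195 in Smad3-/- on regular diet, 2942 to 3110 in WT on high fat diet, and 5534 to 5694 in WT on regular diet. With the antibody it was 10065 to 10160, against 17880 to 18482 with IgG. The log2 signal of the Gapdh probe set at the 3′ end exceeded that at the 5′ end by 0.28 to 0.50 on the 6 other diet and genotype arrays and by 0.12 to 0.14 on the WT regular diet pair. Their part in the differences of the contractile genes was not tested.

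**Figure D5:**
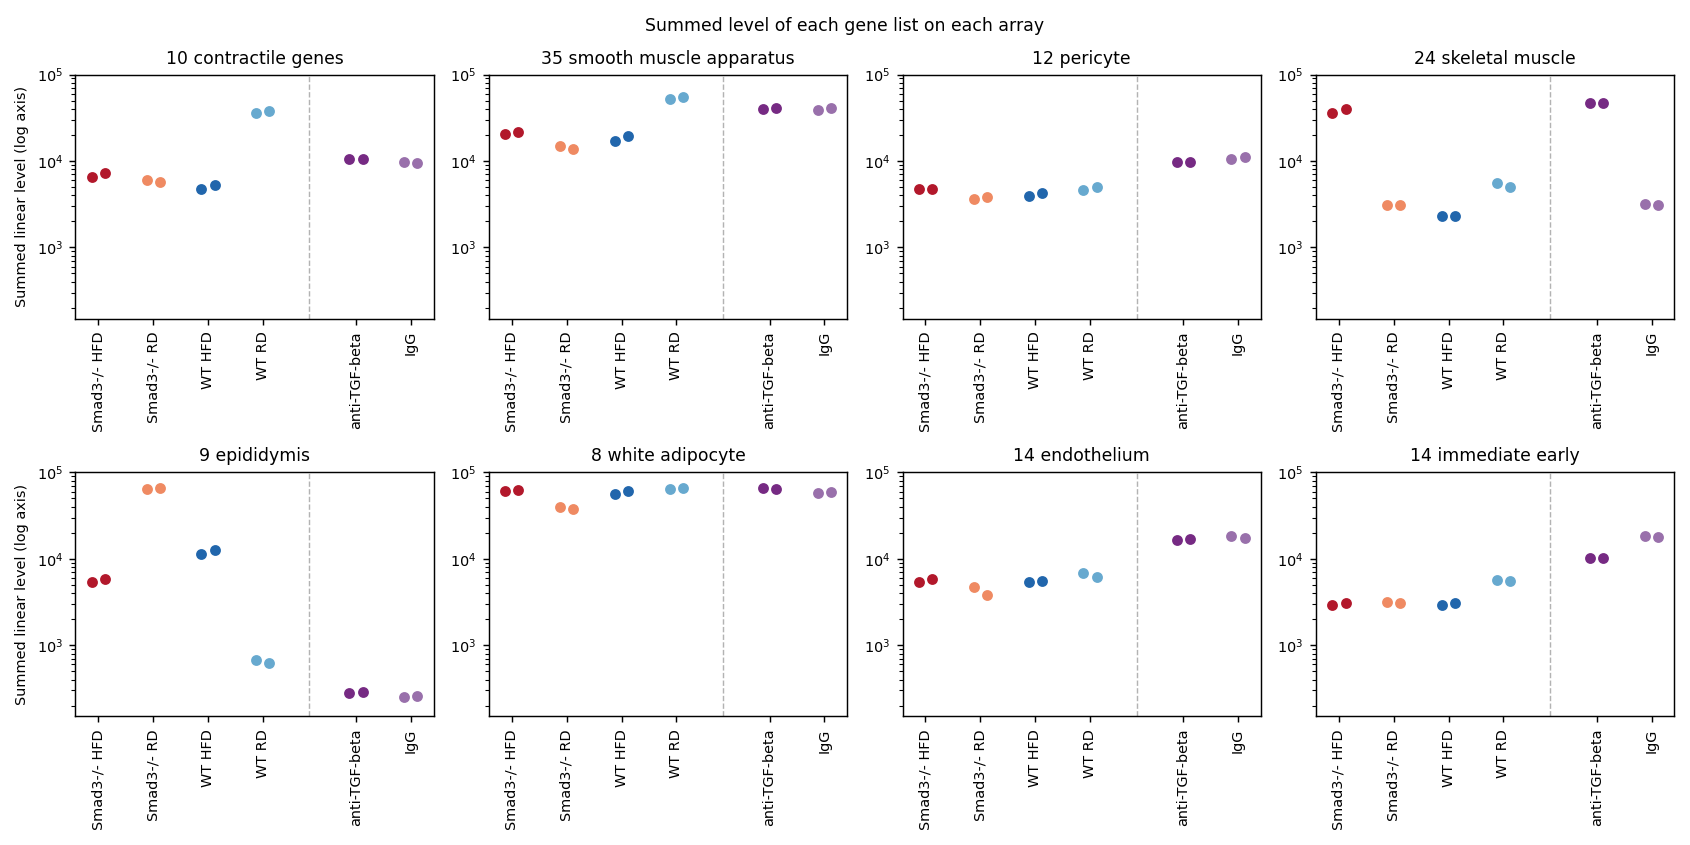
Summed linear level of 8 gene lists on each of the 12 arrays, on a log axis, with points for arrays and the dashed line between the experiments. The contractile genes are highest in WT on regular diet, the skeletal muscle genes in Smad3-/- on high fat diet and with the antibody, and the epididymis genes in Smad3-/- on regular diet.

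The genes whose pattern was most like that of the 10 were found by Pearson's r to their mean over the 12 arrays, with values centred within each experiment, among 821 genes with an SD of at least 0.5. The 10 highest were Ank1 (0.991), Csrp1 (0.990), P2rx1 (0.983), Pcp4 (0.983), Ppp1r12a (0.982), Pgm5 (0.981), Tgfb1i1 (0.980), Sost (0.979), Myl9 (0.978) and Snhg6 (0.977). Csrp1, Ppp1r12a, Pgm5 and Myl9 are also on the list of apparatus genes. Ank1, for an ankyrin, averaged 8.84 in Smad3-/- on high fat diet, 8.70 in Smad3-/- on regular diet, 8.68 in WT on high fat diet and 10.99 in WT on regular diet. Without the WT regular diet pair, over 10 arrays, the 10 values of r ran from 0.25 for Sost to 0.96 for Myl9.

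Among the 10 contractile genes themselves, Cnn1 followed the mean of the other 9 most closely over the 12 arrays (r = 0.997) and Synpo2 least (r = 0.594). Without the WT regular diet pair, Cnn1 (0.951) and Myh11 (0.922) still followed the others, whereas Acta2 (-0.18), Mylk (-0.13) and Actg2 (-0.04) did not and Synpo2, by its brightest probe set, ran opposite (-0.92). The shared pattern of Acta2, Mylk and Smtn (0.24) with the rest therefore rests on the WT regular diet arrays. Over the 4 antibody arrays alone, Actg2 followed the others (0.999). Acta2 (-0.62), Smtn (-0.67), Mylk (-0.998) and Synpo2 (-0.999) ran opposite there, and the remaining genes had 0.97 or more. These correlations describe arrays of the same few groups, which are not independent points.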

How the data were processed

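The deposited values are on the log2 scale, and the submitters' processing notes name RMA and Partek, without versions in what was used here. RMA corrects background, normalizes quantiles and summarises probes, and folds of dim genes can come out too small. RNA amounts were 6 ug per the labels' protocols. The array's 45101 probe sets comprise 34958 with a single gene, 932 with several and 9211 unnamed. The brightest probe set naming only a gene stood for it (18194 genes). Annotation symbols were looked up by gene ID, and 18032 matched. No detection calls were used.

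Groups came from the sample titles. The values were log2 as planned. limma 3.58.1 (R 4.3.3) fitted 1 mean per group to the 12 arrays together. Contrasts went through eBayes, its prior variance following intensity (6 residual and 20.4 prior degrees of freedom). Tests were two-sided and p-values adjusted across all genes by Benjamini-Hochberg. The script was tested on simulated data. The number of arrays limits precision, with SEs of 0.10 to 0.14 for the 10 genes in comparisons of 2 groups and 0.15 to 0.20 in the interaction. Summed levels add linear values (2 to the power of the log2 value).

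The 10 genes and all lists were chosen with earlier results of these data known. Named were all 10 genes, up to 4 genes per list and comparison with the smallest p, the regulators, Smad3, Adipoq and the 10 genes of most alike pattern. Genes with RIKEN, Gm or similar symbols were passed over in the last. Csrp1 and Cald1 under the antibody were named after their values were seen.

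The alternatives tried were eBayes with no trend, eBayes made robust, dropping dim genes (below percentile 40), the mean of probe sets, the second brightest probe set, quantile normalization over 12 arrays, arrays centred on medians, only the arrays of an experiment, a replicate block, and leaving out each array.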

Additional observations from a re-analysis of the deposited data

Results flagged for a closer look

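By its brightest probe set, each of the 10 contractile genes had a genotype difference that was not the same on the 2 diets. The test was limma's interaction, adjusted over all 18194 genes, of which 12.0% were called higher and 6.77% lower. Every value rests in part on the WT regular diet pair, and so is not independent of the genotype difference on the regular diet. The other probe sets of Myh11 (0.34, adjusted p = 0.402) and Des (0.14, adjusted p = 0.774) did not pass in a fit of all probe sets naming a single gene. Each value is the Smad3-/- minus WT difference on the high fat diet less that on the regular diet, on the log2 scale, and those that follow are of the brightest probe sets. Among the actins the value was 2.73 for Actg2 (adjusted p = 5.36e-12) and 2.26 for Acta2 (adjusted p = 1.74e-12). Myh11 had 5.18 (adjusted p = 5.59e-18) and Mylk 2.93 (adjusted p = 2.53e-14). Cnn1 had 5.28 (adjusted p = 4.2e-19), the highest, and Tagln 4.61 (adjusted p = 1.1e-18). Smtn had 3.51 (adjusted p = 1.02e-14), and Lmod1 had 0.88 (adjusted p = 0.0016), the lowest. Synpo2 had 1.58 (adjusted p = 2.14e-07) and Des 4.05 (adjusted p = 6.65e-17). On the regular diet all 10 were lower in Smad3-/-, whereas on the high fat diet 6 were higher, 3 did not pass and Synpo2 was lower. The other probe sets of Synpo2 gave -0.17, 0.72 and -0.10 on the high fat diet, of which only 0.72 passed, as higher.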

How the results depend on the processing

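The 10 calls each for genotype on regular diet, diet in WT and the interaction kept their direction and call under every alternative except the second brightest probe set, where Des turned to 0.17 for genotype on regular diet and Myh11 and Des missed the threshold in all 3. Lmod1 fell below the filter on dim genes and was not tested there. Of 874 recomputed differences of single genes, 822 kept direction and side of the threshold, 36 lost the call, 4 gained one and 12 turned sign.

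With the second brightest probe set, 4 genes were called for genotype on high fat diet (7 otherwise), 3 for diet in Smad3-/- (6) and 5 for the antibody (8). The signs that turned there were Acta2 (-0.20) for genotype on high fat diet, Acta2 (-0.11), Myh11 (-0.095), Des (-0.042) and the median (-0.068) for diet in Smad3-/-, and Synpo2 (0.079) and Des (-0.062) for the antibody. With the mean of probe sets, Acta2 (0.064) and Synpo2 (0.13) turned under the antibody. Leaving out 1 array turned Mylk for genotype on high fat diet (-0.13 without WT high fat a, up to 0.22), and for diet in Smad3-/- Lmod1 (-0.012 without Smad3-/- regular a, up to 0.074) and Cnn1 (0.015 without Smad3-/- high fat b, down to -0.23). None of these turned values passed. Smtn for genotype on high fat diet was also lost without the trend (adjusted p = 0.0645) and with only the arrays of the experiment (0.0509). For diet in Smad3-/-, Acta2 was lost without the trend (adjusted p = 0.0582), with the mean of probe sets (0.217) and with quantile normalization (0.418). Mylk was lost there without the trend (0.118), with robust eBayes (0.0644), the mean of probe sets (0.112), arrays centred (0.123) and only the arrays of the experiment (0.0911), and with the antibody without the trend (0.0539). Smtn for diet in Smad3-/- passed with quantile normalization (0.0306). Without 1 array, genes called ranged from 6 to 7 for genotype on high fat diet, 4 to 6 for diet in Smad3-/- and 7 to 7 for the antibody. Calls over all genes ranged from 1296 to 1679 for diet in WT (1966 otherwise, lowest without WT regular a) and from 2035 to 2710 for diet in Smad3-/- (3150, lowest without Smad3-/- high fat b). The cause was not tested, save that fewer arrays enter these fits.

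The letters a and b were not treated as pairs in the main fit. Over 15 pairs of groups the a minus b differences correlated at -0.16 to 0.17. These values cannot decide whether the letters mark a shared batch, as the labels do not say how arrays a and b came about. A fit with the replicate block called 10, 7, 10, 6, 10 and 8 of the 10 genes for genotype on regular diet, genotype on high fat diet, diet in WT, diet in Smad3-/-, the interaction and the antibody, as without it. Chosen after seeing the data, fits without the WT regular diet arrays called 7, 5 and 8 for genotype on high fat diet, diet in Smad3-/- and the antibody (Mylk was lost for diet in Smad3-/-, adjusted p = 0.0551), fits without the Smad3-/- regular diet arrays 7, 10 and 8 for genotype on high fat diet, diet in WT and the antibody, and the correlations without the WT regular diet arrays were added likewise. Signal near the array median limits what Lmod1, Cnn1 and Actg2 can show in their low groups.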
